A study of Mus musculus with 12 samples.

Results

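The response of mouse epiblast stem cells (EpiSCs) to CHIR99021 was measured while XAV939 was also present. It is the difference between 3 arrays of cells given CHIR99021 with XAV939 and 3 arrays of cells given XAV939 alone, so it compares 6 of the 12 arrays of the series. The arrays were chosen by their titles, and no measured value entered that choice. Each gene was read from a probe with 1 gene symbol, and where a gene had several such probes, from the one whose mean across the 12 arrays was highest. This gave 19938 genes.

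These cells are a pluripotent line type that corresponds to the embryo's epiblast once it has implanted. The cells were of the 129 background and were kept for 12 h without serum before treatment, although a medium with 10% serum is also recorded for every sample. CHIR99021 was used at 3 µM for 2 h and XAV939 at 2 µM. The time with XAV939 is 2 h in the sample labels and 4 h in the design text, which leaves its order relative to CHIR99021 unsettled. The XAV939 group and the group with both compounds therefore share the cells, the starvation and XAV939, and differ in CHIR99021. The other 6 arrays, 3 of untreated cells and 3 of cells given CHIR99021 alone, gave the CHIR99021 response without XAV939, and all 12 entered the choice of probes and the estimate of spread. A fit to the 6 compared arrays alone called 32 genes, against 47 from all 12. The labels do not say whether the 3 samples of each group are separate cultures, and p-values here measure a spread between samples that may be technical.

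In canonical Wnt signalling, a destruction complex built on the scaffold Axin, with APC and the kinases GSK3 and CK1, marks beta-catenin for degradation. CHIR99021 inhibits GSK3, so beta-catenin is no longer marked and accumulates, enters the nucleus and acts with TCF/LEF factors on target genes. XAV939 inhibits the tankyrases, enzymes that mark Axin for degradation, and so leaves more Axin in the cell. The compounds thus act on the same complex at different points, and the crossed design asks which genes still respond to GSK3 inhibition when tankyrase is blocked. GSK3 also phosphorylates many proteins outside this pathway, among them MYC and factors of metabolism.

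The deposited values were taken as log2 expression, a scale judged by their range, and a change is the mean of the arrays with both compounds minus the mean of the XAV939 arrays on that scale. Genes were tested with limma, and a gene was called at a Benjamini-Hochberg adjusted p under 0.05 over all 19938 genes. The standard deviation of values was between 2.18 and 2.21 in 5 of the 6 arrays compared, and 2.14 in XAV939 replicate 2. Background was set roughly at 4.93, the 95th percentile over 1190 olfactory and vomeronasal receptor genes. Of all 19938 genes, 11647 lay above it. So did all 8 markers of post-implantation epiblast and 4 of 9 markers of naive embryonic stem cells, where a description field calls the cells embryonic stem cells. All 7 measured neural markers also lay above it, with 4 of 8 endoderm, 4 of 7 trophoblast and 1 of 7 mesoderm markers. These counts therefore do not identify the cells. Of 11 fibroblast feeder markers, 5 lay above background, none was called, and their summed level on the linear scale was 458 to 482 with XAV939 and 464 to 485 with both compounds.

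Few genes were called for CHIR99021 in the presence of XAV939, which is not a count of all genes that changed. At an unadjusted limma p under 0.05, 4.92% of all genes were higher and 4.77% lower. Limma called 47 genes (0.236%), of which 20 (0.1%) were higher with both compounds and 27 (0.135%) were lower. Sizes ran from 0.38 to 1.68 on the log2 scale, against a median standard error (SE) of 0.09 over all genes. The fold was at least 1.5, which is 0.58 on the log2 scale, for 13 of the higher and 6 of the lower genes. The genes that rose included those for the secreted proteins NODAL and follistatin, for negative regulators of Wnt signalling and for a Wnt ligand. Others encoded the transcription factors GBX2, ZEB2 and BHLHE41, and 2 microRNAs. The rest were diverse, among them Fnip1, Nlrc4, Epha4 and Nt5e. Those that fell included genes of matrix and YAP signalling (Ccn1, Ccn2, Thbs1 and Amotl2), the nuclear proteins DIDO1 and PNUTS, and Myc, Pim1 and Sox4. The groups did not overlap for any of the 47 genes, a property that the test selects for. Over all genes the groups did not overlap, with both compounds higher, for 6.94%, and with both compounds lower for 7.32%.

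**Figure D1:**
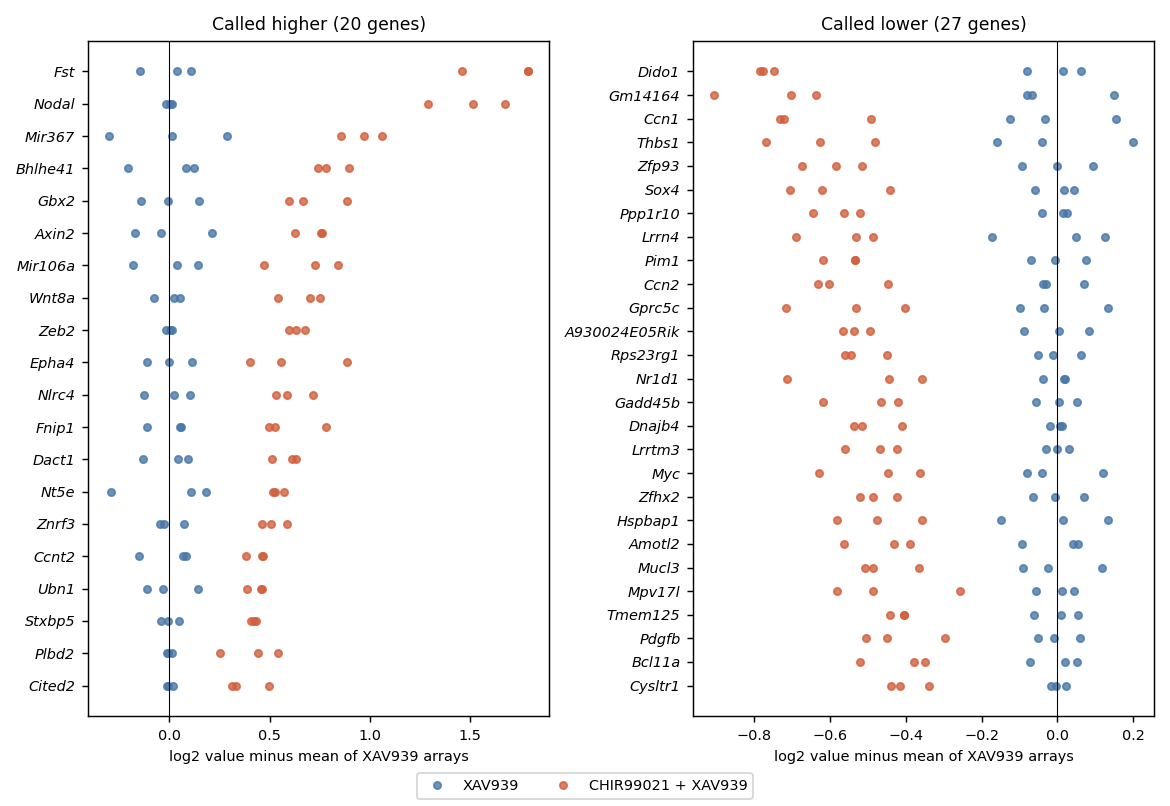
Each row is 1 of the 47 called genes, higher on the left (20 genes) and lower on the right (27 genes). Points are single arrays, as the log2 value minus the mean of the 3 XAV939 arrays, for XAV939 and for both compounds. Fst and Nodal stand apart from the other higher genes at changes of 1.68 and 1.49, and no gene has overlapping groups.

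The largest rises were in Fst, which encodes follistatin, a secreted protein that binds and blocks activin, and in Nodal, a TGF-beta family ligand that patterns the early embryo and whose pathway EpiSCs depend on. Fst was at 7.55, 7.49 and 7.30 in the XAV939 arrays and at 9.24, 8.91 and 9.24 in the arrays with both compounds. Nodal was at 6.36, 6.35 and 6.33 with XAV939 and at 8.02, 7.63 and 7.86 with both. For both genes the lowest array with both compounds lay over 1 unit above the highest XAV939 array. Fst changed by 1.68 (SE 0.10), a 3.20-fold rise (limma adjusted p = 1.50e-07), and Nodal by 1.49 (SE 0.09), a 2.81-fold rise (limma adjusted p = 2.09e-07).

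No other gene of the Nodal, activin and TGF-beta list was called. The list had 31 measured members, 2 called higher and 0 lower, beside 0.1% and 0.135% of all genes. Its median change was 0.01, where the median of all genes was -0.0035. The receptor gene Tgfbr1 had a change of 0.15, the signal transducer genes Smad2 and Smad3 0.16 and 0.02, and the DNA-binding partner gene Foxh1 -0.01. The feedback inhibitors Lefty1 and Lefty2, direct targets of Nodal signalling in the embryo, had changes of 0.07 and -0.06 and means of 3.93 and 4.09, below the background measure. The co-receptor gene Tdgf1 had a change of -0.25 with an SE of 0.21, and replicate 2 with both compounds was its lowest array at 6.90 while replicate 1 was its highest at 8.10. Tgfbr1, Smad3, Foxh1, Tdgf1 and the Lefty genes are given for their roles and were picked after their values were seen.

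Axin2, Znrf3 and Dact1, which encode negative regulators of Wnt signalling, rose. Axin2, the inducible Axin homologue and a general target of beta-catenin, was at 5.94, 5.55 and 5.68 with XAV939 and at 6.48, 6.35 and 6.48 with both compounds. XAV939 replicate 1 was the closest to the other group, and the groups did not overlap. The change was 0.72 (SE 0.10, limma adjusted p = 0.00375), or 1.64-fold. Znrf3, a ubiquitin ligase that removes Frizzled receptors from the membrane, was at 6.71, 6.68 and 6.80 with XAV939 and at 7.19, 7.24 and 7.32 with both, a change of 0.52 (SE 0.09, limma adjusted p = 0.0141). Dact1, which encodes a Dishevelled-binding antagonist, was at 4.60, 4.83 and 4.78 with XAV939, all below the background measure, and at 5.37, 5.25 and 5.35 with both. Its change of 0.59 (SE 0.10, limma adjusted p = 0.0217) was no longer called without any 1 array other than XAV939 replicate 2 (limma adjusted p between 0.0557 and 0.12 without each of the other 5). Znrf3 lost its call without XAV939 replicates 1 or 2 or replicates 2 or 3 of both compounds (limma adjusted p between 0.0557 and 0.0858).

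Among Wnt ligands, Wnt8a rose. It encodes a ligand of the posterior epiblast and primitive streak in the mouse. Its values were 7.77, 7.67 and 7.80 with XAV939 and 8.45, 8.29 and 8.50 with both compounds, so the spread within each group was small against the distance between them. The change was 0.66 (SE 0.08, limma adjusted p = 0.000793). Of 25 measured genes for Wnt ligands, R-spondins and their secretion, Wnt8a was called and 0 were lower. Of all genes, 0.1% were called higher and 0.135% lower. Of the 25, 9 lay above background. Rspo3, an R-spondin that raises Frizzled levels by way of ZNRF3, had 0.37 (SE 0.08, limma adjusted p = 0.0829), and Wnt3 and the acyltransferase gene Porcn had 0.28 and 0.17, with all 3 arrays higher in each case.

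The wider list of Wnt targets moved in part. Of 24 measured members, 2 were called higher (Axin2 and Znrf3) and 1 lower (Myc), beside 0.1% and 0.135% of all genes. The groups did not overlap for 8 members higher and 2 lower, beside 6.94% and 7.32% of all genes, and the median change was 0.09. Tnfrsf19, a receptor gene induced by beta-catenin, differed by 0.39 (SE 0.08) and was not called (limma adjusted p = 0.0624). Sp5, a transcription factor gene induced directly by Wnt signals, was at a mean of 4.19 with XAV939 and 4.70 with both, below background, with a change of 0.51 (SE 0.13, limma adjusted p = 0.145). The transcription factor genes Lef1 and Cdx1, both Wnt targets, had changes of 0.03 and -0.02. Nkd1, a negative regulator that Wnt signalling induces, had 0.11 and was not called. Lef1 was well above background at 8.45 on average, while Cdx1 at 4.54 was not. Tbxt and Tcf7 were not analysed here.

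Genes of the pathway machinery gave no call. Among 44 measured genes of the destruction complex, tankyrases, Wnt receptors and TCF factors, 0 were called and the median change was 0.05. The share called over all genes was 0.236%. The gene of beta-catenin, Ctnnb1, was at 10.99 and 10.96 in the 2 groups. The genes of the targeted kinases, Gsk3a and Gsk3b, had changes of 0.09 and 0.05, and those of the targeted tankyrases, Tnks and Tnks2, 0.01 and 0.03. Axin1, the constitutive scaffold, had 0.18 (SE 0.09, limma adjusted p = 0.544). At an unadjusted p under 0.05, 3 of the 44 were higher and 3 lower, beside 4.92% and 4.77% of all genes.

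Of the streak and mesendoderm genes, Wnt8a was called among 23 measured members, beside 0.236% of all genes. Of the 23, 8 lay above background. Eomes, a T-box factor gene of streak and mesendoderm, differed by 0.28 (SE 0.09) with all 3 arrays higher, and was not called (limma adjusted p = 0.285). Gata6 had 0.24 (limma adjusted p = 0.424). The median of the list was 0.01.

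Gbx2 rose among the pluripotency genes. It encodes a homeobox factor that in mouse embryonic stem cells acts downstream of LIF and STAT3, and it marks posterior epiblast and later the hindbrain. Its values were 6.40, 6.54 and 6.69 with XAV939 and 7.14, 7.21 and 7.43 with both compounds. XAV939 replicate 3 was the highest of its group and still lay below each array with both compounds. The change was 0.72 (SE 0.09, limma adjusted p = 0.00301), or 1.64-fold.

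The core pluripotency factors were not called. Of 11 measured core genes, 0 were called, and the median change was -0.08. Over all genes 0.236% were called. In lists this short, 0 calls does not show that the genes were unchanged. Pou5f1, which encodes OCT4, was at 11.49 and 11.48, and Sox2 at 11.32 and 11.24. Nanog had 0.16 (SE 0.10, limma adjusted p = 0.638). Of 15 naive pluripotency genes, Gbx2 alone was called. Klf2 and Tbx3 had 0.24 and 0.39 and the FGF ligand gene Fgf4 had -0.46 (SE 0.10), the last with a limma adjusted p of 0.102. Of 14 genes of primed epiblast, 0 were called, and Fgf5 had -0.13 (SE 0.10).

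Other regulators of cell state rose. Zeb2, a zinc finger repressor of E-cadherin in epithelial-mesenchymal transition, was at 6.96, 6.93 and 6.95 with XAV939 and at 7.62, 7.58 and 7.54 with both compounds. Neither group spanned more than 0.1, and the change was 0.64 (SE 0.07, limma adjusted p = 0.000607). Of 16 measured genes of that transition, Zeb2 alone was called, beside 0.236% of all genes. Epha4, an ephrin receptor tyrosine kinase, rose by 0.62 (SE 0.11, limma adjusted p = 0.0207), with replicate 3 of both compounds highest at 6.82. Cited2, a CBP/p300 binding coactivator, rose by 0.38 (SE 0.08, limma adjusted p = 0.0497), the smallest rise that was called, and it kept its call in 5 of 23 alternatives.

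Genes of 2 microRNA clusters stood higher with both compounds. The cluster of miR-302 and miR-367 lies in an intron of Larp7 and is a marker of pluripotent cells, and that of miR-106a and miR-363 lies on the X chromosome. Mature sequences of 7 arms are shown, since the seed largely decides which transcripts a microRNA pairs with and some seeds recur between the clusters. Capitals mark the seed, bases 2 to 8. Sequences and positions are from RefSeq, build GRCm38.p6, and the arrays measure the precursor gene, not the mature strand.
miR-367-3p, chr3:127545779-127545800, plus strand: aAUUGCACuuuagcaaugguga
miR-363-3p, chrX:52741697-52741718, minus strand: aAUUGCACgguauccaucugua
miR-302b-3p, chr3:127545275-127545297, plus strand: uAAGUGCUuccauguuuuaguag
miR-302d-3p, chr3:127545665-127545687, plus strand: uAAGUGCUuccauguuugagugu
miR-302c-3p, chr3:127545406-127545427, plus strand: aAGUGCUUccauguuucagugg
miR-106a-5p, chrX:52742541-52742563, minus strand: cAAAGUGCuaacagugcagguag
miR-20b-5p, chrX:52742159-52742181, minus strand: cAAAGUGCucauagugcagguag
MiR-367-3p of the first cluster and miR-363-3p of the second share a seed. MiR-302b-3p and miR-302d-3p share another, and miR-106a-5p and miR-20b-5p share one more, which miR-17-5p and miR-20a-5p also have. MiR-302c-3p, as listed, begins a base further into a stretch that it shares with miR-302b-3p and miR-302d-3p. Its marked seed is therefore theirs shifted by a base.

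Mir367 was at 7.06, 6.47 and 6.79 with XAV939 and at 7.75, 7.63 and 7.84 with both compounds. XAV939 replicate 2 was the lowest array, and the groups did not overlap. The change was 0.96 (SE 0.14, limma adjusted p = 0.00512), or 1.95-fold, the largest after Fst and Nodal. The 4 other microRNA genes of the cluster had changes of 0.67 (Mir302a, limma adjusted p = 0.114), 0.61 (Mir302b, limma adjusted p = 0.138), 0.67 (Mir302c, limma adjusted p = 0.0828) and 0.67 (Mir302d, limma adjusted p = 0.114). All 3 arrays with both compounds were above all 3 XAV939 arrays for each, and XAV939 replicate 2 was the lowest array for each. Larp7, whose intron holds the cluster, had -0.18 (SE 0.09, limma adjusted p = 0.553), with overlapping groups. Whether the cluster and Larp7 share a transcript was not tested. XAV939 replicate 2 also had the narrowest spread of values of the 6 arrays. Without it Mir367 kept its call (limma adjusted p = 0.0297), as it did without each of the other 5.

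In the second cluster, Mir106a was at 5.48, 5.37 and 5.16 with XAV939 and at 5.81, 6.18 and 6.06 with both compounds, a change of 0.68 (SE 0.13, limma adjusted p = 0.0289). Mir20b (0.79, limma adjusted p = 0.0778), Mir19b-2 (0.83, limma adjusted p = 0.109) and Mir363 (0.54, limma adjusted p = 0.27) were higher without passing. The groups did not overlap for any of the 4, and replicate 2 was the highest array with both compounds for each. The medians were 0.67 over the 6 members of the first list, Larp7 included, and 0.73 over the 4 of the second, against -0.0035 over all genes. The related clusters of miR-17 and of miR-106b had 0 calls among 8 members and a median of 0.20. Of these, Mir20a came nearest, at 0.42 (SE 0.09, limma adjusted p = 0.0544), and its mean stayed under the background measure in both groups. Members of a cluster share a primary transcript and can share sequence, so they are not independent measurements.

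**Figure D2:**
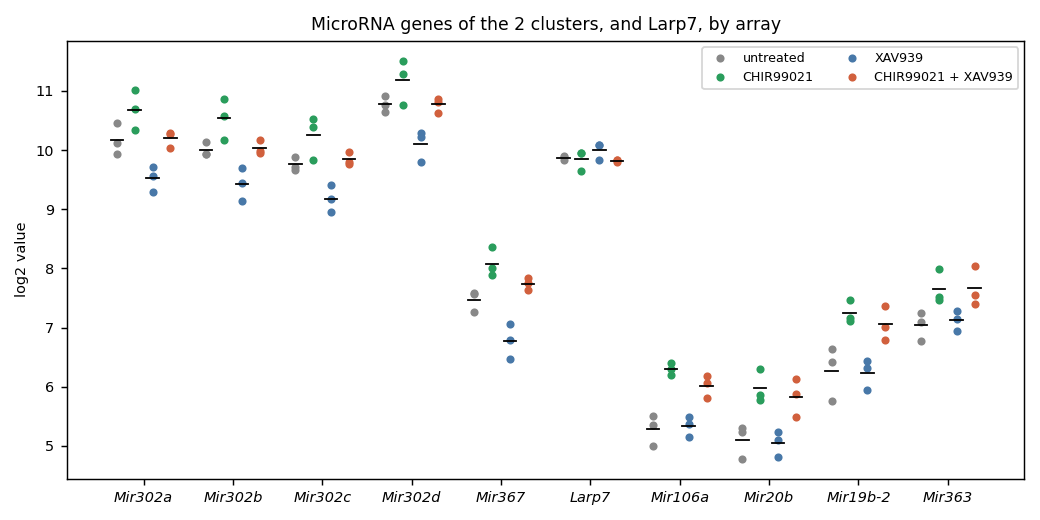
Log2 values by array for the genes of the miR-302 and miR-367 cluster, Larp7, whose intron holds that cluster, and the miR-106a and miR-363 cluster. Points are arrays and bars are group means for untreated cells, CHIR99021, XAV939 and both compounds. All microRNA genes are higher with both compounds than with XAV939, and Larp7 has overlapping groups.

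Bhlhe41, also called DEC2, encodes a repressor within the circadian clock and rose from 5.29, 5.32 and 4.99 with XAV939 to 6.10, 5.98 and 5.94 with both compounds. The change was 0.81 (SE 0.11, limma adjusted p = 0.00375), or 1.75-fold. Nr1d1, which encodes the clock repressor REV-ERB alpha, went the other way, from 7.30, 7.36 and 7.35 to 6.89, 6.62 and 6.98. It fell by 0.51 (SE 0.09, limma adjusted p = 0.0227). Nr1d1 overlaps Thra on the genome, and whether its probe also reads Thra was not tested. The other clock genes gave no call among 16 measured members, and Clock and Cry1 had 0.28 and 0.26. The share called over all genes was 0.236%.

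Fnip1 rose. It encodes a partner of folliculin, and together they set the activity of TFEB and TFE3, factors that drive lysosome genes. Fnip1 was at 8.03, 7.86 and 8.02 with XAV939 and at 8.75, 8.47 and 8.50 with both compounds, a change of 0.60 (SE 0.08, limma adjusted p = 0.00375). Of 29 measured genes of the folliculin complex, TFE factors and lysosome, Fnip1 was called and 0 were lower. Of all genes, 0.1% were called higher and 0.135% lower. The groups did not overlap for 12 members, all higher, beside 6.94% of all genes, and the median change was 0.15. Dpp7, Lamp2 and Clcn7, which encode a lysosomal peptidase, a lysosomal membrane protein and a chloride transporter, had 0.38, 0.32 and 0.46 (limma adjusted p = 0.164, 0.196 and 0.213). Tfeb and Tfe3 themselves had 0.12 and -0.01. Over all genes of like brightness, in deciles 7 and 8 of the mean, the median was 0.04 and 0.045, and the part of brightness in the list's median was not tested. Plbd2, a lysosomal phospholipase-like gene outside the list, rose by 0.41 (SE 0.08, limma adjusted p = 0.0347).

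The remaining genes that rose were few and diverse. Nlrc4, an inflammasome sensor, rose from 4.53, 4.75 and 4.68, below the background measure, to 5.19, 5.37 and 5.24, a change of 0.61 (SE 0.08, limma adjusted p = 0.00375). Nt5e, the cell surface nucleotidase CD73, rose by 0.54 (SE 0.10, limma adjusted p = 0.0347). Ubn1, a subunit of the HIRA histone chaperone complex, rose by 0.43, Ccnt2, the cyclin T2 subunit of the elongation kinase P-TEFb, by 0.44, and Stxbp5, the SNARE regulator tomosyn, by 0.42.

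Dido1 had the largest fall. It encodes a PHD finger protein linked to chromatin and RNA polymerase. Values were 8.49, 8.35 and 8.44 with XAV939 and 7.65, 7.64 and 7.68 with both compounds. The arrays with both compounds were within 0.1 of each other, and the gene fell by 0.77 (SE 0.08, limma adjusted p = 0.00026). Ppp1r10, which encodes PNUTS, a nuclear subunit of protein phosphatase 1 that acts on elongating RNA polymerase, went from 8.77, 8.71 and 8.78 to 8.11, 8.19 and 8.23 and fell by 0.58 (SE 0.09, limma adjusted p = 0.0117). Within the list of P-TEFb and elongation genes, 20 measured, these 2 fell and Ccnt2 rose, with a median of 0.02. Over all genes, 0.135% were called lower and 0.1% higher. The list, Dido1 and Ppp1r10 included, was drawn up with earlier results of these data known, so its counts are only a description. Cdk9, the kinase of P-TEFb, had 0.18 (limma adjusted p = 0.54).

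Genes of the YAP programme fell in part. Ccn1 and Ccn2 encode the matricellular proteins CYR61 and CTGF, Thbs1 encodes thrombospondin, and Amotl2 encodes an angiomotin that binds YAP, and all are induced by YAP with TEAD factors. Ccn1 was at 9.24, 9.43 and 9.15 with XAV939 and at 8.54, 8.78 and 8.55 with both compounds, and fell by 0.65 (SE 0.10, limma adjusted p = 0.00704). Thbs1 was at 8.75, 8.99 and 8.63 with XAV939 and at 8.17, 8.31 and 8.03 with both, and fell by 0.63 (SE 0.11, limma adjusted p = 0.0238). In both genes XAV939 replicate 2 was the highest array and replicate 2 was the highest of the arrays with both compounds. Ccn2 fell by 0.56 (SE 0.09, limma adjusted p = 0.014) and Amotl2 by 0.46 (SE 0.08, limma adjusted p = 0.0187).

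Of 25 measured YAP targets, 4 were called lower and 1, Nt5e, higher, beside 0.135% and 0.1% of all genes. Their median change was -0.04. The groups did not overlap for 7 members lower and 4 higher, beside 7.32% and 6.94% of all genes. Ankrd1, another standard YAP target, had 0.04 at a mean below background, and it was picked for its role after its value was seen. Ccn1 and Thbs1 also answer to serum response factor. Of 27 measured immediate early and serum response genes, 1 was called, the stress gene Gadd45b, which fell from 7.05, 7.11 and 7.16 to 6.64, 6.69 and 6.49, by 0.50 (SE 0.08, limma adjusted p = 0.00704). Dusp1, Klf6 and Ier5 had -0.36, 0.23 and 0.23 without passing.

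Myc fell. Its product drives growth and ribosome synthesis and is itself a substrate of GSK3, and the gene is a listed Wnt target in other tissues. Its values were 9.80, 9.96 and 9.76 with XAV939 and 9.40, 9.48 and 9.21 with both compounds, and it fell by 0.48 (SE 0.09, limma adjusted p = 0.0238). Of 12 measured genes of the MYC, MAX and MXD network, Myc alone was called, beside 0.236% of all genes. The groups did not overlap for 5 members lower and 2 higher, beside 7.32% and 6.94% of all genes, and Mycn had -0.36 (limma adjusted p = 0.231). None of 20 ribosome biogenesis genes was called (median 0.06), and neither was any of 23 genes of the G2/M phase (median -0.06) or of 18 of the G1/S phase (median 0.0048).

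Pim1, a serine/threonine kinase gene induced by STAT3 and a partner of MYC in tumours, was at 8.27, 8.35 and 8.21 with XAV939 and at 7.66, 7.74 and 7.74 with both compounds. It fell by 0.56 (SE 0.08, limma adjusted p = 0.00512) and was the only call among 14 measured genes of LIF and STAT3 signalling and Pim kinases. Sox4, a SOX factor of progenitor cells, went from 6.82, 6.79 and 6.72 to 6.07, 6.16 and 6.33 and fell by 0.59 (SE 0.09, limma adjusted p = 0.0101). It was the only call among 16 SOX genes other than Sox2. The share called over all genes, to set beside both lists, was 0.236%.

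Further genes for transcription factors fell. Zfp93, a zinc finger gene, fell by 0.59 (SE 0.08, limma adjusted p = 0.00418), Zfhx2, a zinc finger homeobox gene, by 0.48 (SE 0.07, limma adjusted p = 0.00512), and Bcl11a, a zinc finger repressor, by 0.42 (SE 0.08, limma adjusted p = 0.0347). Zfhx2 shares its locus with the antisense gene Zfhx2os. Rps23rg1, a mouse retrogene copy of the ribosomal protein gene Rps23, fell by 0.52 (SE 0.08, limma adjusted p = 0.00512). Its probe may also bind RNA of near-identical copies, so the source of its signal is uncertain.

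Genes of membrane and secreted proteins made up another group of falls. They were Lrrn4 (-0.57) and Lrrtm3 (-0.48), both leucine-rich repeat membrane proteins, the orphan receptor Gprc5c (-0.55), the leukotriene receptor Cysltr1 (-0.40), the growth factor subunit Pdgfb (-0.42), Mucl3 (-0.45) and Tmem125 (-0.42). Pdgfb was the only called gene whose mean over all arrays was not above the background measure. A second probe of Gprc5c had -0.27 (SE 0.08), in the same direction, and did not pass over all probes (limma adjusted p = 0.435). The other falls were in Mpv17l (-0.44), the co-chaperone gene Dnajb4 (-0.49), Hspbap1 (-0.47) and the long noncoding RNA genes Gm14164 (-0.75) and A930024E05Rik (-0.53). Lrrn4, Lrrtm3, Mpv17l and Dnajb4 overlap Crls1, Ctnna3, Pdxdc1 and Fubp1 on the genome, and shared signal was not tested.

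Of all genes, 0.236% were called, so a short list would seldom hold a call. A list with 0 calls was therefore not shown to be unchanged. Several lists gave no call in either direction. These were FGF/ERK feedback (20 genes measured), BMP targets (17), ATF4 and amino acid stress genes (21), p53 targets (13), cholesterol synthesis (16), heat shock and chaperone genes (10), the Notch pathway (18) and aryl hydrocarbon receptor targets (10). Their medians lay between -0.05 and 0.06. Markers of neural (7), endoderm (8), trophoblast (7) and mesoderm cells (7) also had 0 calls each. Among 18 Eph receptors and ephrins, Epha4 alone was called, and among 14 genes of FoxO and insulin feedback, Cited2 alone.

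**Figure D3:**
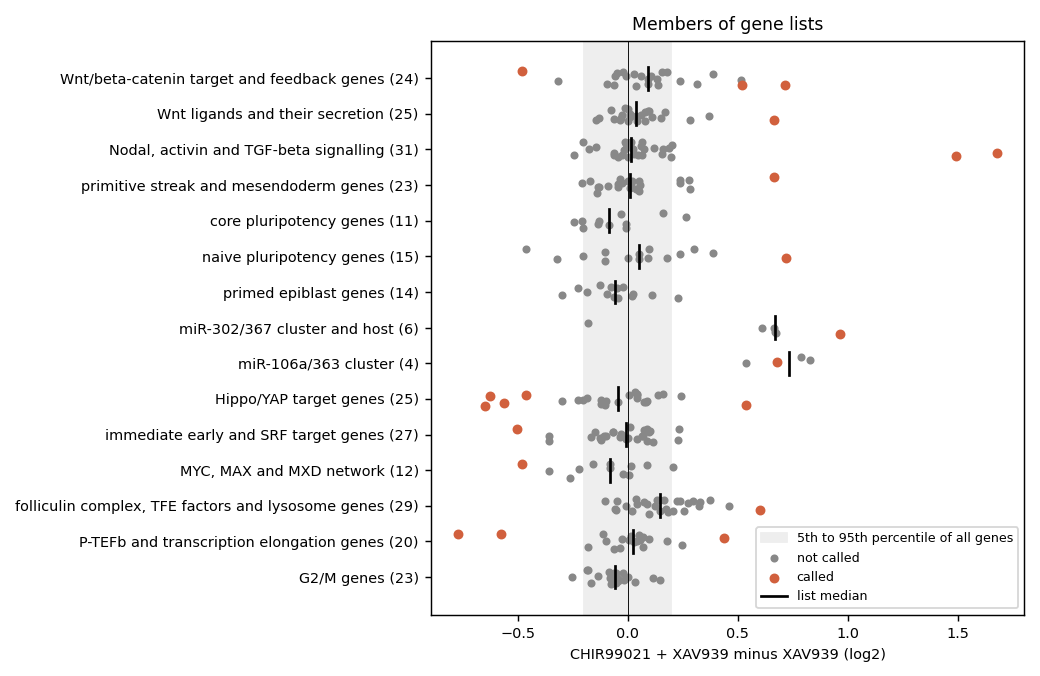
Changes (log2, both compounds minus XAV939) of the measured members of 15 gene lists, with the number measured in brackets. Points are genes, red where called, vertical bars are list medians and the grey band runs from the 5th to the 95th percentile of all genes. The microRNA clusters have the highest medians, 0.67 and 0.73, and the other medians lie between -0.08 and 0.15. Some lists have no called gene, and some members not called, such as Sp5, lie about as far from 0 as called ones.

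Promoters of called genes were searched for motifs of the factors named above. A window held 250 bases before and 50 after a RefSeq start, and 34 of the 47 genes had at least 1. The motifs, on both strands, were CTTTGAT for TCF/LEF, GGAATG for TEAD, CACGTG for the E-box bound by clock repressors, MYC and TFE factors, and the CArG box. Of all 32851 windows, 3.73% held the first, 14.7% the second, 7.15% the third and 1.63% the last. In 17 windows of higher genes, 0 held TCF/LEF, 1 TEAD, 5 the E-box and 0 the CArG box. In 25 windows of lower genes, 1 held TCF/LEF, 7 TEAD, 3 the E-box and 0 the CArG box. These are descriptions of letters, without a test, and some genes have several windows.

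The windows of Nodal and Axin2 are shown as the called Nodal and Wnt genes with the largest rises that had an entry, and that of Ccn1 as the YAP target with the largest fall. Fst, the gene of the Nodal, activin and TGF-beta list with the largest rise, and Thbs1, the YAP target next to Ccn1, are named only. Bhlhe41 and Fnip1, 2 of the 8 called genes with an E-box, were added after their values and motifs were seen. The other 6 were Cited2, Gadd45b, Gbx2, Hspbap1, Pim1 and Ubn1. Capitals mark matches to the 4 motifs, and each sequence reads in the direction of its gene on GRCm38.p6, from RefSeq.
Nodal, chr10:61417722-61418021, plus strand: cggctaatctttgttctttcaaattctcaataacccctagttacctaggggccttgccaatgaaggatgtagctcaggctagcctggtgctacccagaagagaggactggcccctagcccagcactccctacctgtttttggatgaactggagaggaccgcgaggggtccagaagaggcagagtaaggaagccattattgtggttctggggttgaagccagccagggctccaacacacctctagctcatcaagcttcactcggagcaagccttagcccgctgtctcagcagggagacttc
Axin2, chr11:108920099-108920398, plus strand: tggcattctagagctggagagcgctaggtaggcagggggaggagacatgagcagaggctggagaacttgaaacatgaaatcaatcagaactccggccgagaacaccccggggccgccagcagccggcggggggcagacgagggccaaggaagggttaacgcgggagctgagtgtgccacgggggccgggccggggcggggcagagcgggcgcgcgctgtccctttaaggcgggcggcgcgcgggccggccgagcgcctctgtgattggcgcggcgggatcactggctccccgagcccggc
Ccn1, chr3:145649936-145650235, minus strand: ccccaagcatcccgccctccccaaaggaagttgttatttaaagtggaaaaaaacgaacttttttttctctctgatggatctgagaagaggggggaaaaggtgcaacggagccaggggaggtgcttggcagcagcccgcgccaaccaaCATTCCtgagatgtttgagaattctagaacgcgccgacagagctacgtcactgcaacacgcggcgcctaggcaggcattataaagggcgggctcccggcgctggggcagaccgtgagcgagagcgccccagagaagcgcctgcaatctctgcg
Bhlhe41, chr6:145865371-145865670, minus strand: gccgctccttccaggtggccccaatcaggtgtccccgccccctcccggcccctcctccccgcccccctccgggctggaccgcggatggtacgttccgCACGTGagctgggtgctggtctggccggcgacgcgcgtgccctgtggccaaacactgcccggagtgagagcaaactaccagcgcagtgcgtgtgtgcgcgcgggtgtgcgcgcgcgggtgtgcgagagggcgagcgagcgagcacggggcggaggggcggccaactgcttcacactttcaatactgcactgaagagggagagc
Fnip1, chr11:54437929-54438228, plus strand: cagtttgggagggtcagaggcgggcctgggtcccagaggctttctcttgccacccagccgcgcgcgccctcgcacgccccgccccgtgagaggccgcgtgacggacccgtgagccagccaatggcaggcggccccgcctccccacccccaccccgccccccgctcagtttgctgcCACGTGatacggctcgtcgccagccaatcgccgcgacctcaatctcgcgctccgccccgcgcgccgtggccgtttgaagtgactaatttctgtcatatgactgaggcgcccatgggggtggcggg
The TEAD match of Ccn1, read here on the opposite strand, begins at position -103 from the start. The E-box of Bhlhe41 begins at position -153 and that of Fnip1 at position -75. The windows of Nodal and Axin2 held none of the 4 motifs, which speaks only of these letters in these windows.

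The same compound was also measured without XAV939, as CHIR99021 against untreated. Its group means come from the other 6 arrays, while the probes and the estimate of spread are common to both comparisons. There limma called 84 genes (0.421%). The genes called in both comparisons numbered 23, 15 higher and 8 lower, which is 48.9% of the 47 and 27.4% of the 84. Leaving out untreated replicate 1, 2 or 3 moved the count of 84 to 44, 49 or 34, and leaving out CHIR99021 replicate 2 or 3 moved it to 35 or 45. All 20 genes called higher with XAV939 also had a change above 0 without it, and 23 of the 27 called lower had one below 0. The 4 that did not were Gm14164, Dnajb4, Mpv17l and Cysltr1.

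Among the higher genes, the median change was 0.61 with XAV939 and 0.66 without, and 8 of the 20 were larger with it. Fst had 1.68 with XAV939 and 1.81 without, Nodal 1.49 and 1.76, Wnt8a 0.66 and 0.72, and Zeb2 0.64 and 0.75. Gbx2 had 0.72 and 1.14, Axin2 0.72 and 1.06, and Cited2 0.38 and 0.70. Mir367 had 0.96 and 0.61, Bhlhe41 0.81 and 0.60, Fnip1 0.60 and 0.47, and Plbd2 0.41 and 0.03. Of these, Mir367 and Plbd2 were not called without XAV939 (limma adjusted p = 0.0775 and 0.942), and neither were Nt5e, Ubn1 and Stxbp5. The genes were chosen by the values with XAV939, so these medians are a description.

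For the lower genes, the median change was -0.51 with XAV939 and -0.34 without, and 24 of the 27 were larger in size with it. These genes too were chosen by the values with XAV939, so both results are a description. Dido1 had -0.77 and -0.80, Ppp1r10 -0.58 and -0.76, Gadd45b -0.50 and -0.70, and Pim1 -0.56 and -0.49. The YAP targets had smaller changes without XAV939, with Ccn1 at -0.42, Ccn2 at -0.16, Thbs1 at -0.14 and Amotl2 at -0.22. None of the 4 was called there, and none was called for the interaction (limma adjusted p = 0.965 for each). In the other direction of reading, all 61 genes called without XAV939 alone had a change of the same sign with it. The share of all genes with matching signs was not computed, so counts of matching signs, here and above, are a description. Over all genes the changes in the 2 comparisons had a correlation of 0.348, and 0.419 over the 11647 genes above background, given as a description across genes, which are not independent.

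The interaction tested directly whether a change differed with and without XAV939. Limma called 0 genes, the lowest adjusted p was 0.107, and 985 genes (4.94%) had an unadjusted p under 0.05. None of the differences listed above passed this test. Among the called genes, 4 of the 20 higher and 8 of the 27 lower were under an unadjusted 0.05, but 1 of the 2 changes that the interaction compares had chosen them. The lowest p was that of Gm14164, a long noncoding RNA gene that overlaps Nrsn2. It was at 7.49, 7.37 and 7.27 untreated, at a mean of 7.71 with CHIR99021, 7.95, 7.72 and 7.73 with XAV939, and 7.16, 7.10 and 6.89 with both compounds. It thus stood lower with both compounds than in any other array, and its change with XAV939 (-0.75) minus that without (0.34) was -1.09 (SE 0.16).

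The next genes by interaction were Dnajb4 (-0.64, SE 0.12), Crygb (0.70, SE 0.13) and Mpv17l (-0.63, SE 0.12), each at a limma adjusted p of 0.352, followed by Frg2f1 (-0.62) and Dmrta1 (-0.55). Dmrta1, a doublesex-related factor gene, had 0.72 without XAV939, a call there, and 0.17 with it. Crygb, a lens crystallin gene, lay below background at a mean of 4.62. On simulated data with 200 changed genes, the interaction test recovered 42% of differences of 0.5 and 88% of those of 1 on the log2 scale, and the test with XAV939 recovered 80% and 99%. A difference of 0.5 between the 2 responses was therefore often not detectable with 3 arrays a group. These simulations made 137 and 183 calls, where the data gave 0 and 47, and the adjusted threshold is looser when more genes are called. The recovered shares may thus overstate what the tests recover in the data, where Gm14164, at -1.09, was not called.

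In the genes called higher, the XAV939 mean lay below the untreated mean in 15 of 20, and in those called lower it lay above it in 24 of 27. The XAV939 arrays also chose these genes, so both counts are given without a test.

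**Figure D4:**
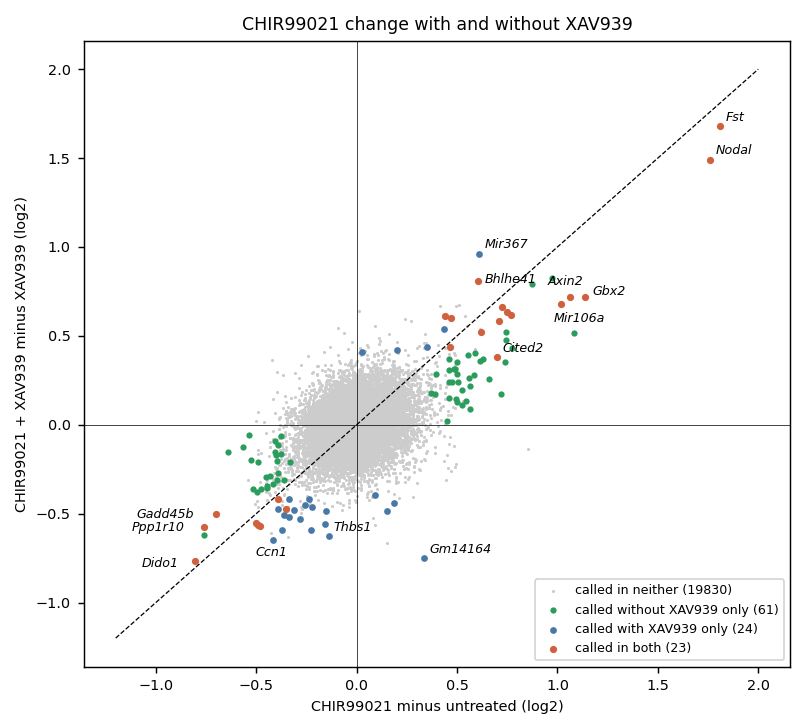
Each point is a gene, with its CHIR99021 change without XAV939 (horizontal axis, log2) and with XAV939 (vertical axis, log2), coloured by where it was called. The dashed line marks equal change. The 23 genes called in both lie in the upper right and lower left, and Gm14164 lies at 0.34 and -0.75.

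Calls differed in how far they held when arrays were left out or values were processed differently. A set of 14 among the 47 stayed called under every alternative that tested them, the fold threshold aside. They were Fst, Nodal, Bhlhe41, Gbx2, Axin2, Wnt8a, Zeb2, Nlrc4 and Fnip1 among the higher genes, and Zfhx2, Rps23rg1, Pim1, Zfp93 and Dido1 among the lower. With Mir367, 15 kept it without each of the 6 compared arrays. Limma called 21 genes when XAV939 replicate 1 was left out and 26 when replicate 2 was. Leaving out replicate 2 or 3 with both compounds gave 27 or 24 calls. Without XAV939 replicate 1 the split turned, with 13 genes higher and 8 lower. Of the 6 arrays, Ccn1 and Gadd45b lost their call only without replicate 3 of both compounds (limma adjusted p = 0.051 and 0.0502).

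Other calls rested on more arrays. Ccnt2, Stxbp5, Cited2, Cysltr1, Bcl11a and Tmem125 lost their call without any 1 of the 6 (limma adjusted p between 0.064 and 0.199). Nt5e, Ubn1, Plbd2, Pdgfb, Mpv17l, Hspbap1, Dnajb4, Dact1, Mir106a and Nr1d1 lost it without 5 of the 6 (up to 0.212). Thbs1, Myc and Amotl2 lost their call without XAV939 replicates 1 or 2 or replicates 1 or 3 of both compounds, with limma adjusted p up to 0.136, 0.129 and 0.0961. Ccn2 lost it without XAV939 replicates 1 or 2 or replicates 2 or 3 of both (up to 0.0858), and Sox4 without XAV939 replicate 1 or replicates 1 or 2 of both (up to 0.0642). Epha4 lost it without XAV939 replicates 1 or 2 or replicates 1 or 3 of both (up to 0.109), and Ppp1r10 without XAV939 replicates 1 or 3 or replicates 1 or 2 of both (up to 0.0657). Mir106a kept its call only without replicate 1 of both compounds, and Nr1d1 only without replicate 3 of both, with limma adjusted p up to 0.171 and 0.0995 otherwise. Gm14164 lost it without XAV939 replicate 1 (0.0641) or replicate 3 of both (0.0573). In each of these fits the sign of the change stayed, as it did for all 47 genes.

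Near the threshold, the called genes with the highest adjusted p were Ccnt2 and Cited2 (both 0.0497), Hspbap1 (0.046), Stxbp5 (0.0448) and, tied at 0.0347, Plbd2, Nt5e, Bcl11a and Mpv17l. Just outside it by limma were Gm13033 (0.0532), Mir20a, Eid2b and Akap3 (each 0.0544) and Zdhhc8 (0.0598). Their changes of -0.47, 0.42, -0.43, -0.38 and 0.42 are of the same size as those inside.

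**Figure D5:**
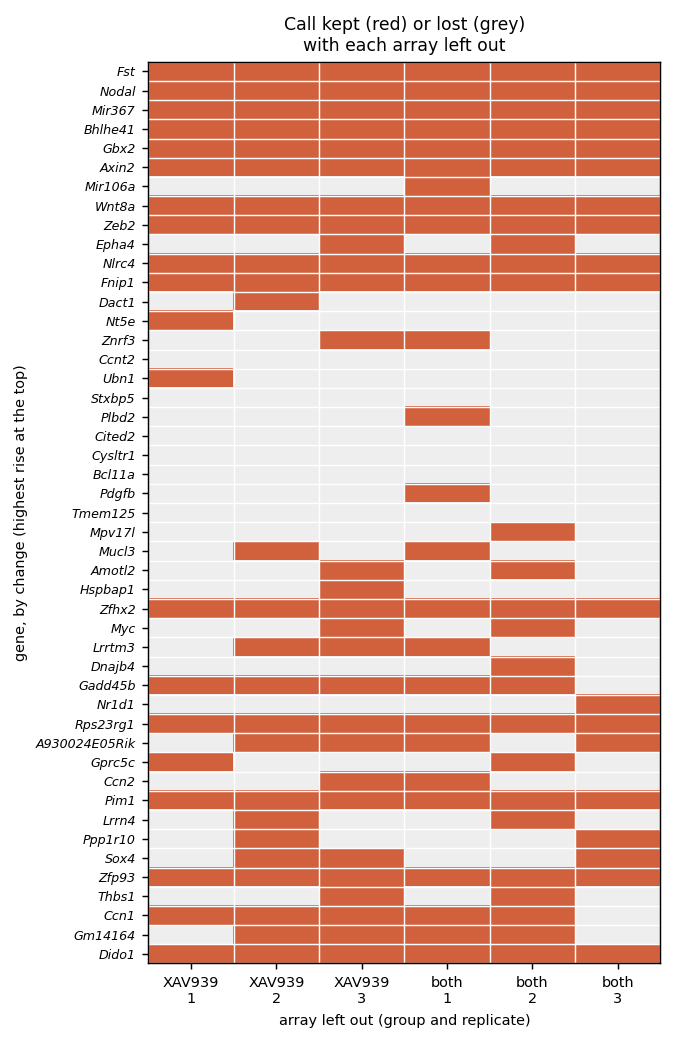
Each row is a called gene, ordered from the largest rise to the largest fall, and each column is 1 of the 6 compared arrays left out. Red marks an adjusted p that stayed under 0.05 and grey 1 that did not. The 15 rows that are red throughout lie mostly near the top among the higher genes and are scattered among the lower ones.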

How the data were processed

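RNA of 12 EpiSC samples, 3 in each of 4 groups taken from the sample titles, was hybridised to 1-colour Affymetrix arrays, per the labels' protocols. The authors deposited a value per probe, taken here as log2 expression. The submitters' processing notes name Partek, and how background was corrected and probes normalized and summarised is not given in the sources used here. The medians of the arrays ran from 5.22 to 5.27, and no further normalization was applied. Of 35399 probes, 21789 had 1 gene symbol, 1621 had several and 11989 were unnamed here. Symbols were updated through RefSeq (GRCm38.p6) by gene identifier, with 23 probes unmatched.

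A model of 4 group means over the 12 arrays was fitted by limma 3.58.1 (R 4.3.3, lmFit and eBayes), giving two-sided moderated tests on 8 residual and 8.03 prior degrees of freedom, with Benjamini-Hochberg adjustment over genes within a contrast. The contrasts were CHIR99021 with XAV939 against XAV939, CHIR99021 against untreated, and their difference. The text names every called gene, fixed Wnt and pluripotency genes, and the measured members of the miR-302 and miR-106a cluster lists. It also names the 6 genes with the smallest interaction p and the genes next to the threshold. Of the members of other lists with the smallest p, only some are named. Alternatives were other normalizations, filters, probe rules, fits and arrays left out. The members and gene lists were chosen with earlier results of these data known, so calls within a list are a description. The shares to set beside them are those over all genes, 0.1% called higher and 0.135% lower. Simulated data were used to test the fit. Arrays have no read depth, and their number limits precision. Figures were drawn with matplotlib 3.10.9.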

Additional observations from a re-analysis of the deposited data

Results flagged for a closer look

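Probes without a listed gene were outside the comparisons above. With all 35399 probes tested together by limma, 4 of the 11989 unlisted probes (0.0334%) were called with both compounds against XAV939, 2 higher and 2 lower, and 0 of the 1621 probes with several genes. The higher ones had changes of 0.82 (SE 0.10, limma adjusted p = 0.0181) and 0.54 (SE 0.08, limma adjusted p = 0.0411). The lower ones had identical values on every array, each with a change of -0.63 (SE 0.09, limma adjusted p = 0.0393), so they count as 1 measurement. In the same fit 15 of the 21789 probes with 1 gene (0.0688%) were called.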

How the results depend on the processing

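With XAV939 present, the 47 calls became 19 at a fold of at least 1.5 and 19 of all probes, and 21 to 50 with single arrays left out. Without XAV939, the 84 calls became 30 at that fold and 27 of all probes, and 34 to 97 with arrays left out. For the interaction, the 0 calls became 1 with eBayes trend and robust settings and 1 with array weights, and 0 to 1 with arrays left out (1 without CHIR99021 replicate 3), in each case Gm14164. With XAV939, other settings gave 32 to 70 calls, the highest with array weights and the lowest in the fit to the compared groups alone. The calls with XAV939, 20 higher and 27 lower, split as 19 and 39 with quantile normalization, 22 and 38 with cyclic loess and 24 and 26 with median centring. Median centring split the calls without XAV939 as 68 higher and 18 lower, against 51 and 33. No single-gene result reversed. Of the settings tried for the 47 called genes, 845 kept the call and 232 lost it.

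Replicate numbers of the XAV939 arrays and those with both compounds were not taken as pairs. Correlations of same-numbered deviations were 0.0871 to 0.159, and all 6 arrays correlated best with their own number, a hint from the data. With the number as a replicate block, limma called 43 genes with XAV939, 78 without and 0 for the interaction.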
